A study of Mus musculus with 6 samples.

Results

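The ganglionic eminences are swellings of the ventral telencephalon, the part of the embryonic forebrain called the subpallium, in which GABAergic neurons are born. A set of 9 transcription factor genes known for this tissue and its GABAergic precursors (Gsx1, Gsx2, Dlx1, Dlx2, Dlx5, Dlx6, Nkx2-1, Lhx6 and Sp8) was followed here in embryonic mouse brains at stage E14.5. The genes were chosen by name, for their known function, with earlier results of these data known. All 9 were among the 24848 genes listed, and all 9 were among the 15848 genes expressed highly enough to be tested.

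The study compared 3 brains labelled wild type (WT 1 to WT 3) with 3 brains labelled E4f1 KO (KO 1 to KO 3), 1 messenger RNA library from each. E4f1 encodes a DNA-binding zinc finger protein, studied here, by the series' title, for its part in pyruvate metabolism and in translation fidelity through the Elongator complex, a tRNA modifier. The labels give the tissue only as brain, and do not give the strain, the exons removed, whether all cells carry the deletion, or the litters. Both groups share the stage and the preparation, and no treatment is given.

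Libraries held between 42113465 and 74064707 expected counts, that is read pairs assigned to genes. Values per library are given in the order of the replicate numbers, as CPM, which are read counts scaled to a common library size, unless another unit follows. E4f1 itself stood at 20.7, 21.6 and 21.5 CPM in WT and at 7.12, 7.01 and 6.92 CPM in KO, so every library matched its label (log2 fold change -1.60 ± 0.08 SE, edgeR adjusted p = 0.00142). The level of midbrain genes differed between the brains. En1, En2, Pax5 and Pax2, which mark the midbrain and isthmus, summed to 72.9, 34.7 and 3.23 CPM in the WT libraries and to 0.392, 2.40 and 1.45 CPM in the KO libraries. WT 1 and WT 2 therefore stood apart from the other 4 libraries in this respect, and the results are given also without them. The hindbrain genes Hoxa2, Hoxb2, Hoxa3, Hoxb3 and Hoxb4 summed to between 0.056 and 0.256 CPM in all 6 libraries, and none of the 5 was high enough to be tested. Which parts of the brain were taken is not stated in the labels. In RNA from tissue of mixed cell types, a change in the share of ganglionic eminence cells and a change in RNA per cell cannot be told apart.

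As background, the homeobox genes Gsx2 and Gsx1 act early, in the dividing progenitors along the ventricle, where they help to set subpallial identity and to start the Dlx genes. The Dlx homeobox genes lie in convergent pairs, Dlx1 with Dlx2 and Dlx5 with Dlx6. Dlx1 and Dlx2 come on as progenitors commit to the GABAergic fate, and Dlx5 and Dlx6 follow as the cells leave the cycle. Nkx2-1 specifies the medial ganglionic eminence, the source of many cortical interneurons, and Lhx6, which it switches on, guides these interneurons as they migrate. Sp8, a zinc finger factor, is known for the lateral and caudal eminences and for olfactory bulb interneurons.

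Promoter sequence is shown for the genes with the largest fold changes, Gsx2 and Dlx2, and was searched for TGACGT, a core of the motif that E4F1 is known to bind. RefSeq (build GRCm38.p6) gave sequence for 11 transcription starts of 7 of the 9 genes, Gsx1, Gsx2, Dlx1, Dlx2, Nkx2-1, Lhx6 and Sp8. Each line gives the 250 bases before the start, 5′ to 3′ on the gene's strand, and capitals mark a match on either strand.
Gsx2, chr5:75075351-75075600, plus strand: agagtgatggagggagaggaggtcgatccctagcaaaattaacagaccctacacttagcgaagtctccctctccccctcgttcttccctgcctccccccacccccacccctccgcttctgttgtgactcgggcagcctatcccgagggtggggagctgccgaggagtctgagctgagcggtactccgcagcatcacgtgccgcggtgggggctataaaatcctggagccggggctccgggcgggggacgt
Dlx2, chr2:71546755-71547004, minus strand: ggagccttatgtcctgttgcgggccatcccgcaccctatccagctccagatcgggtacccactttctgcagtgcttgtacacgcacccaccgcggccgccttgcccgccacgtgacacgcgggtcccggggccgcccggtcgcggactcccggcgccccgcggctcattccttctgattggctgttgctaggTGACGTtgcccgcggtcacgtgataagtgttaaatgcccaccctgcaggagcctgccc

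TGACGT occurred in these 250 bases at 1 of the 11 starts and so in 1 of the 7 genes, Dlx2, where it began 58 bases before the start. The same letters were found in 6.47% of the 32851 transcription starts in the table. TAATTA, a core that homeodomain proteins are known to bind, also occurred in 1 of the 7 genes, at 1 of the 11 starts (a start of Sp8), and in 4.84% of all starts. A match of letters describes the sequence only, and binding was not measured.

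Gsx2 was the only gene of the 9 that changed by the edgeR test, at an adjusted p below 0.05 over all tested genes, and it was higher in KO. Dlx2 and Dlx5 were higher in each KO brain than in any WT brain without passing the test. Of the 9 genes, 8 had positive fold changes, and Gsx1 did not. The count of 1 called gene of 9 compares with 1.0% of all tested genes called in either direction, and with 0.511% called higher. The median log2 fold change of the 9 was 0.54, against -0.000767 over all tested genes. All KO libraries lay above all WT libraries for 3 of the 9, compared with 14.6% of all tested genes, and below them for 0 of the 9, compared with 13.0%. DESeq2 called 3 of the 9 higher (Gsx2, Dlx2 and Dlx5), against 4.81% of the genes for which it gave an adjusted p, and 4.06% of these genes it called lower. At an unadjusted p below 0.05 by edgeR there were 4 of the 9 (Gsx2, Dlx2, Dlx5 and Dlx6) and 19.6% of all tested genes, the share to read beside the counts at an unadjusted p given for other lists.

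**Figure D1:**
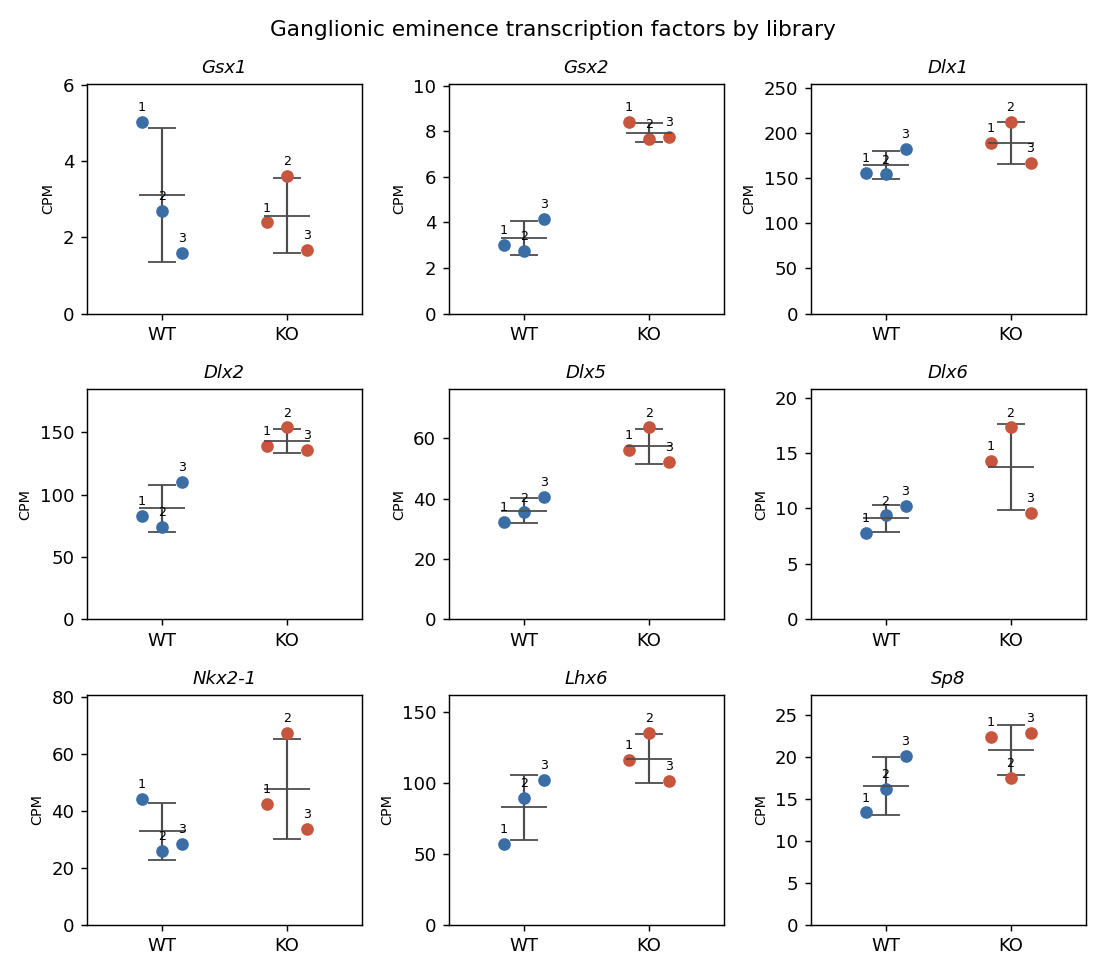
Level of each of the 9 genes in CPM (vertical axis, from 0) in the WT and KO libraries, with the replicate number above each point; horizontal bars are the group mean and whiskers ± SD (n = 3). The groups are apart for Gsx2, Dlx2 and Dlx5 and overlap for the other 6, and KO 2 is the highest library for Dlx1, Dlx2, Dlx5, Dlx6, Nkx2-1 and Lhx6.

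Among the progenitor genes, Gsx2 (chromosome 5, 75075601 to 75077893, GRCm38) was at 3.03, 2.75 and 4.15 CPM in WT and at 8.41, 7.67 and 7.74 CPM in KO. The KO libraries were close together and all above the highest WT library. The mean went from 3.31 ± 0.741 to 7.94 ± 0.406 CPM (SD, n = 3 per group), a 2.39-fold rise (log2 fold change 1.26 ± 0.19 SE, edgeR adjusted p = 0.0456). The call lies close to the threshold and was lost when any 1 library was left out, with adjusted p between 0.0550 and 0.255 and log2 fold changes between 1.14 and 1.46 in these 6 fits.

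Gsx1 (chromosome 5, 147188696 to 147190947), the closest relative of Gsx2, was at 5.02, 2.70 and 1.58 CPM in the WT and 2.39, 3.61 and 1.67 CPM in the KO libraries. Its groups overlapped fully, WT 1 being the highest library. The log2 fold change was -0.28 ± 0.48 (edgeR adjusted p = 0.772) and turned to 0.26 ± 0.43 without WT 1, so these data set no direction for Gsx1. Whether the fold changes of Gsx1 and Gsx2 differ was not tested.

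The Dlx genes did not pass the edgeR test, and their fold changes were all positive. Dlx2 (chromosome 2, 71543408 to 71546754) was at 82.9, 74.1 and 110 CPM in WT and 139, 154 and 136 CPM in KO. No KO library came as low as the highest WT library, WT 3. On the log2 scale the difference was 0.68 ± 0.15 (edgeR adjusted p = 0.104, DESeq2 adjusted p = 0.00337).

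Its neighbour Dlx1 (chromosome 2, 71528113 to 71533981) was at 156, 154 and 182 CPM in WT and 189, 212 and 167 CPM in KO. The groups overlapped, with KO 3 below WT 3. The log2 fold change was 0.21 ± 0.11 (edgeR adjusted p = 0.359), smaller than that of Dlx2, and 0.11 ± 0.11 without KO 2.

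The balance within this pair can be read inside each brain, where library scaling cancels. In TPM, which scale the level for transcript length as well as library size, the level of Dlx1 was 1.65, 1.84 and 1.46 times that of Dlx2 in WT and 1.19, 1.22 and 1.08 times in KO. Every KO brain had a lower ratio than every WT brain, with a mean of 1.16 ± 0.0744 against 1.65 ± 0.190 (SD, n = 3 per group). No test was run on this ratio, and with 3 libraries against 3 an exact two-sided permutation test cannot go below 0.10.

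Dlx5 (chromosome 6, 6877801 to 6882068) was at 32.3, 35.4 and 40.5 CPM in WT and 56.2, 63.6 and 52.1 CPM in KO. The lowest KO library exceeded the highest WT library by more than the range of the WT group. The log2 fold change was 0.67 ± 0.11 (edgeR adjusted p = 0.0611). It was called by DESeq2 (adjusted p = 9.29e-05) and by edgeR with scaling to library totals (0.0368).

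Dlx6 (chromosome 6, 6863334 to 6867970), the partner of Dlx5, was at 7.76, 9.36 and 10.2 CPM in WT and 14.3, 17.3 and 9.60 CPM in KO. KO 3 fell within the WT range, while KO 1 and KO 2 stood above it. The difference was 0.60 ± 0.23 on the log2 scale (edgeR adjusted p = 0.237). The ratio of Dlx5 to Dlx6 in TPM overlapped between the groups, at 2.85 ± 0.136 in WT and 3.12 ± 0.678 in KO.

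Long noncoding transcripts run along both pairs. Dlx1as, which is transcribed from the strand opposite Dlx1, was at 76.6, 85.4 and 112 CPM in WT and 136, 151 and 130 CPM in KO. All KO libraries were above all WT libraries, as for Dlx2, and the log2 fold change was 0.61 ± 0.15 (edgeR adjusted p = 0.120). Dlx6os1, a noncoding transcript that overlaps the Dlx5 and Dlx6 region and is known as Evf2, went from 114 ± 30.1 to 165 ± 10.4 CPM (0.53 ± 0.18, edgeR adjusted p = 0.194), and its groups did not overlap either. Dlx6os2 had 0.31 ± 0.24 (adjusted p = 0.491). None of these 3 was called by edgeR, with 2 at an unadjusted p below 0.05, and DESeq2 called Dlx1as. In GENCODE, 335 of the 5396 exonic bases of Dlx1 (6.21%) lie opposite an exon of Dlx1as, where they make up 20.6% of the 1630 exonic bases of the antisense gene. For Dlx6, 104 of 2375 exonic bases (4.38%) lie opposite Dlx6os2. Both gene pairs are on opposite strands, and the strand setting of the counting is not given in the sources used here, so reads from these stretches may have been counted for either gene. The ratio of Dlx1as to Dlx1 in TPM was 0.550 ± 0.0600 in WT and 0.734 ± 0.0356 in KO, without overlap.

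Of the genes of the medial ganglionic eminence, Nkx2-1 (chromosome 12, 56531935 to 56536908) was at 44.1, 25.8 and 28.5 CPM in WT and 42.5, 67.4 and 33.6 CPM in KO. WT 1 exceeded KO 1 and KO 3, and the log2 fold change was 0.54 ± 0.31 (edgeR adjusted p = 0.379). It was 0.21 ± 0.26 without KO 2 and 0.82 ± 0.31 without WT 1.

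Nkx2-1 is also expressed in the hypothalamus, and the level of hypothalamic genes varied. A set of 9 hypothalamic markers, none of them called, summed to 47.3, 29.2 and 17.2 CPM in WT and 21.7, 59.7 and 2.90 CPM in KO. KO 2 and WT 1, which had the highest sums, also had the highest Nkx2-1. In KO 3 Otp, Sim1 and Fezf1, the most abundant of these markers, were at 0.216, 0.529 and 0.666 CPM, while Nkx2-1 was at 33.6 CPM. The part of hypothalamic tissue in the level of Nkx2-1 was not tested.

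Lhx6 (chromosome 2, 36081950 to 36105992) was at 57.1, 89.4 and 102 CPM in WT and 116, 135 and 101 CPM in KO. WT 1 was the lowest library, and KO 3 and WT 3 were level. Lhx6 had a log2 fold change of 0.50 ± 0.22 (edgeR adjusted p = 0.280), and 0.29 ± 0.14 without WT 1.

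Sp8 (chromosome 12, 118846288 to 118852578) was at 13.4, 16.2 and 20.2 CPM in WT and 22.4, 17.5 and 22.9 CPM in KO. KO 2, the highest library for most of the other genes, was the lowest KO library here. Sp8 had a log2 fold change of 0.33 ± 0.18 (edgeR adjusted p = 0.356), which was 0.20 ± 0.17 without WT 1 and 0.50 ± 0.17 without WT 3. Close relatives of these factors had similar sizes of difference: Sp9 had 0.35 ± 0.17 (adjusted p = 0.311) and Lhx8, a further factor of the medial eminence, 0.68 ± 0.29 (adjusted p = 0.263). Dlx3 and Nkx2-4 were low, with 0.98 ± 1.30 and -0.60 ± 1.64, and Dlx4 was too low to be tested. No relative was called by edgeR, limma or DESeq2, with 0 at an unadjusted p below 0.05 by edgeR.

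Per length, Dlx1 was the most abundant of the 9 genes in WT, at 161 ± 14.8 TPM, followed by Dlx2 (99.4 ± 20.6), Dlx5 (76.4 ± 8.57) and Lhx6 (67.7 ± 18.6). Nkx2-1 (31.6 ± 9.56) and Dlx6 (26.9 ± 3.61) came next, then Sp8 (9.81 ± 2.01), Gsx2 (5.77 ± 1.27) and Gsx1 (5.03 ± 2.85). Among neighbours in this order, the WT ranges overlapped between Dlx2 and Dlx5, Dlx5 and Lhx6, Nkx2-1 and Dlx6, and Gsx2 and Gsx1, and not between the other 4 neighbouring pairs. In KO the order of means was the same except that Gsx2, at 13.6 ± 0.829 TPM, stood above Sp8, at 12.2 ± 1.69 TPM, with overlapping ranges.

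The 9 genes were set beside other genes of the subpallium and of GABAergic neurons. Of 23 other subpallial transcription factors, Sp9 and Lhx8 among them, 10 had positive and 13 negative fold changes, with a median of -0.01, and none was called by edgeR or limma. By edgeR, 2 were higher and 2 lower at an unadjusted p below 0.05, and DESeq2 called 1 higher and 1 lower. Vax1, Foxp2 and Ebf1, which were among these, were chosen after their values were seen. Vax1, a homeobox gene of the ventral forebrain, reached between 25.5 and 37.2 CPM in KO, against a WT mean of 18.4 ± 1.67 CPM (SD, n = 3) (0.71 ± 0.16, edgeR adjusted p = 0.105). Its level was higher in every KO brain than in any WT brain. Foxp2 and Ebf1 lay lower in every KO brain than in any WT brain, with -0.82 ± 0.19 and -0.68 ± 0.24 (edgeR adjusted p = 0.107 and 0.204). Foxp2 was at 134, 118 and 117 CPM in WT and 64.5, 89.4 and 53.9 CPM in KO. The most abundant factors of this list, Bcl11b, Meis2 and Zeb2, had 0.00 ± 0.21, 0.21 ± 0.14 and -0.01 ± 0.27. The median of this list turned to 0.06 with scaling to library totals.

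The genes that make and carry GABA were not called. Gad2, which makes GABA, was at 174, 153 and 150 CPM in WT and 137, 178 and 105 CPM in KO, and its groups overlapped (-0.18 ± 0.19, edgeR adjusted p = 0.615). Gad1, the other synthesis enzyme, had -0.02 ± 0.26 and the vesicular transporter Slc32a1 -0.08 ± 0.27 (adjusted p = 0.972 and 0.894). Slc32a1 was named after its values were seen. Over the 12 tested genes of GABA handling, interneuron migration and subtype, 5 fold changes were positive and the median was -0.05 (0.02 with scaling to library totals). edgeR and limma called none, 1 was higher and 1 lower at an unadjusted p below 0.05, and DESeq2 called the same number, Ackr3 higher and Nxph1 lower, both named after their values were seen. Ackr3, a scavenging chemokine receptor of migrating interneurons, had 0.47 ± 0.11 (edgeR adjusted p = 0.111), and Nxph1, a secreted ligand of neurexins found in interneurons, had -0.80 ± 0.24 (0.165). Whether the fold changes of the 9 factors differ from those of the GABA genes was not tested.

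**Figure D2:**
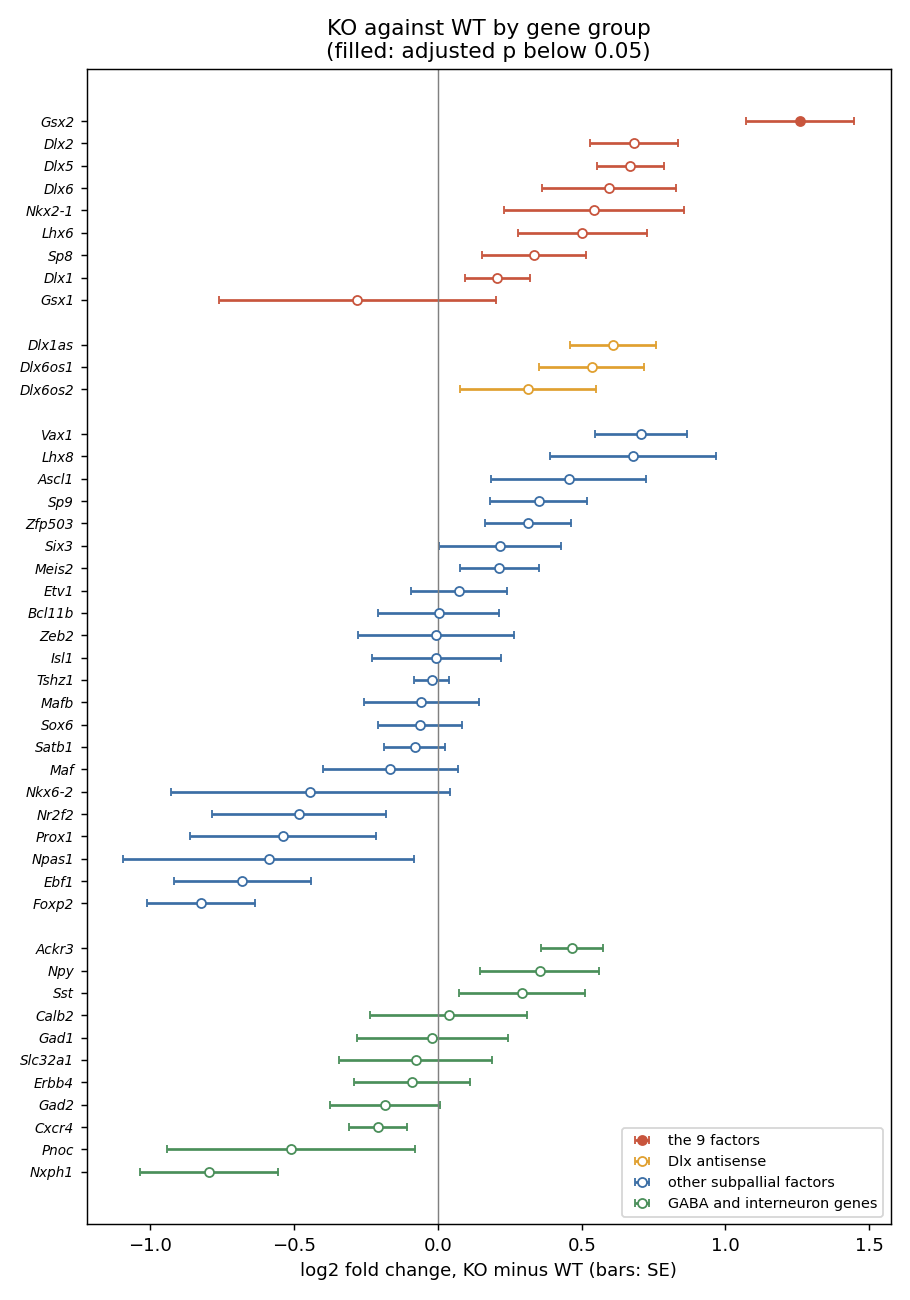
Log2 fold change, KO minus WT (horizontal axis), with SE, for tested genes of 4 groups: the 9 factors, the Dlx antisense transcripts, other subpallial factors and GABA and interneuron genes. Gsx2, the filled point at 1.26, has an adjusted p below 0.05 by edgeR; the other subpallial factors and GABA genes lie on both sides of 0.

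Sonic hedgehog is the signal known to induce Nkx2-1 and to pattern the ventral forebrain. None of its 8 tested pathway genes was called by edgeR, limma or DESeq2, and 0 had an unadjusted p below 0.05 by edgeR. The fold changes were positive in 4 and negative in 4, with a median of 0.03. The most abundant, Gli3, Ptch1 and Smo, had log2 fold changes of 0.17 ± 0.33, -0.03 ± 0.16 and 0.24 ± 0.19.

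Regional make-up differed between the libraries. Of 8 pallial markers, 7 had positive fold changes, with a median of 0.19, and none was called by edgeR, limma or DESeq2, with 0 at an unadjusted p below 0.05. By library their sums were 959, 1030 and 1640 CPM in WT and 1430, 903 and 1840 CPM in KO. KO 2 had the lowest pallial sum of the 6 libraries and the highest levels of Dlx1, Dlx2, Dlx5, Dlx6, Nkx2-1 and Lhx6. Gsx2 was at similar levels in the 3 KO brains, 7.67 to 8.41 CPM, while their pallial sums ran from 903 to 1840 CPM. WT 1 and WT 2, in which midbrain genes were high, had lower pallial sums than WT 3. They also had lower levels of Gsx2, Dlx1, Dlx2, Dlx5, Dlx6, Lhx6 and Sp8 than WT 3, unlike KO 2 for the Dlx genes and Lhx6. Nkx2-1 and Gsx1 were highest in WT 1 among the WT brains and in KO 2 among the KO brains. WT 1 and KO 2 had the lowest pallial sums of their groups, and Sp8 was lowest there within each group. The relation of these levels to regional make-up was not tested.

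WT 3 had few midbrain transcripts and is the WT brain most like the KO brains in this respect. With WT 1 and WT 2 left out, a comparison added after the data were seen, Gsx2 had a log2 fold change of 0.93 ± 0.18, Dlx5 of 0.50 ± 0.14 and Dlx2 of 0.38 ± 0.11 (edgeR adjusted p = 0.385, 0.450 and 0.450). The other 6 genes ranged from 0.05 for Sp8 and Dlx1 through 0.20 for Lhx6, 0.43 for Dlx6 and 0.69 for Gsx1 to 0.75 for Nkx2-1. The ratio of Dlx1 to Dlx2 was 1.46 in WT 3, above the 1.22 of the highest KO library. In the fit without WT 1 and WT 2 the lone WT library is assumed to vary like the KO libraries, and 0 of 16267 genes were called, with 1697 at an unadjusted p below 0.05. With a midbrain score (En1, En2 and Pax5, averaged as log2 CPM) as a covariate, the values were 0.74 ± 0.28, 0.46 ± 0.21 and 0.30 ± 0.23 for Gsx2, Dlx5 and Dlx2 (adjusted p = 0.989 for each). That score was higher in every WT than in any KO library, so regional content and genotype cannot be told apart fully. A score of telencephalic genes as covariate left 1.18 ± 0.17, 0.68 ± 0.13 and 0.64 ± 0.15 (adjusted p = 0.0758, 0.108 and 0.157).

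**Figure D3:**
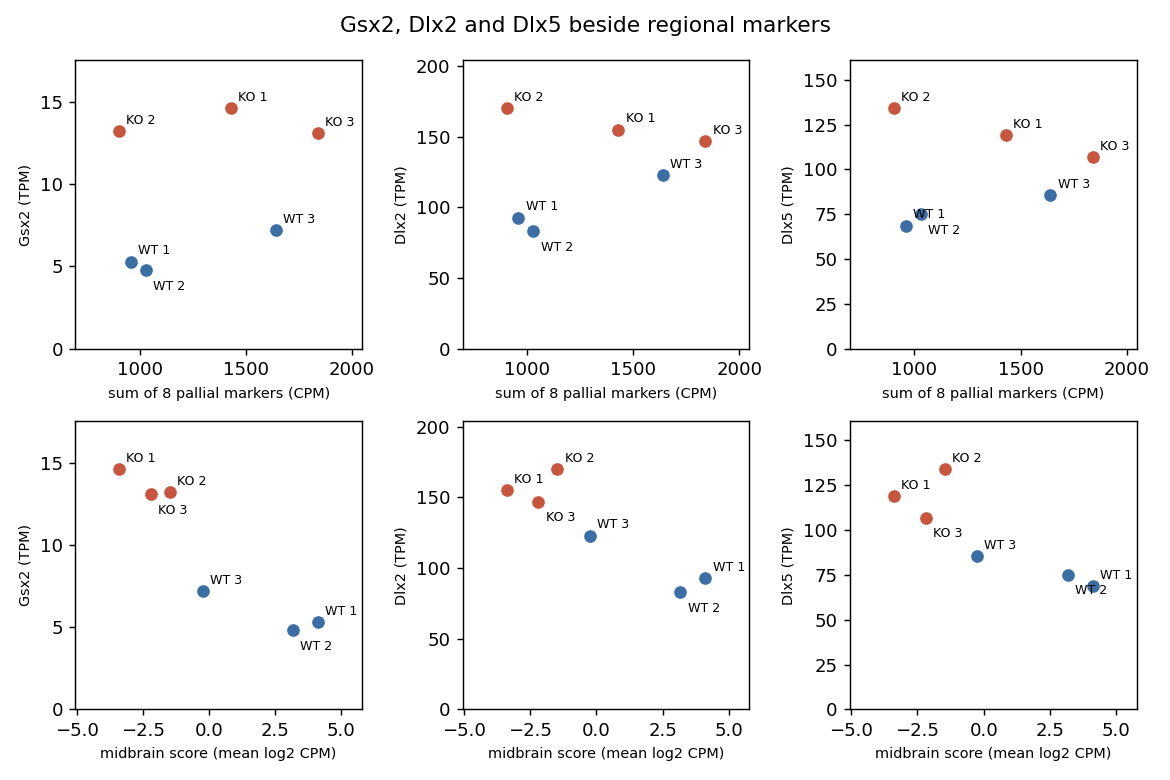
Level of Gsx2, Dlx2 and Dlx5 in TPM (vertical axes, from 0) in each library against the summed level of 8 pallial markers in CPM (upper row) and against the midbrain score in log2 CPM (lower row). KO 2 has a lower pallial sum (903 CPM) than WT 3 (1640 CPM) and more of all 3 genes, and the KO libraries have the lowest midbrain scores.

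Some of the 9 genes are also known outside the brain, Nkx2-1 in the thyroid and the Dlx genes and Sp8 in the nose and the cranial mesenchyme. The summed levels were between 2.19 and 4.18 CPM for 4 thyroid markers, with Tg, which encodes the thyroid hormone precursor thyroglobulin, at no more than 0.666 CPM in any library. By edgeR none of the 4 was called and 1, Pax8, was at an unadjusted p below 0.05, and DESeq2 called Pax8 lower. Pax8, named after its values were seen, was at 2.42, 1.22 and 0.12 CPM in WT and 0.21, 0.105 and 0.176 CPM in KO. It was thus highest in WT 1 and WT 2, where midbrain genes were high. Olfactory epithelium markers (4 genes, 2 of them tested) were low and summed to more in KO without overlap, at 0.483, 0.705 and 0.466 CPM in WT and 0.951, 0.928 and 0.921 CPM in KO. None of them was called by edgeR, limma or DESeq2, and 1 was at an unadjusted p below 0.05. Cnga2, an olfactory channel subunit and that 1 gene, had a log2 fold change of 1.19 ± 0.32 (edgeR adjusted p = 0.136), named after its values were seen. Cranial mesenchyme and bone markers summed to between 38.1 and 54.8 CPM in WT and to 38.3, 37.2 and 123 CPM in KO. KO 3, the library with the highest sum, was the lowest KO library for Dlx1, Dlx2, Dlx5, Dlx6 and Lhx6. Microglial markers, summing to 37.4 to 54.7 CPM in WT and 66.8 to 89.5 CPM in KO, and endothelial markers, at 171 to 202 and 222 to 313 CPM, were higher in KO without overlap. In these 2 lists edgeR called 1 of 5 (Cx3cr1, higher) and 0 of 4 genes, with 4 and 3 at an unadjusted p below 0.05, limma called the same numbers, and DESeq2 called 3 and 3. Their part in the values of the 9 genes was not tested.

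The 9 genes did not all vary together. Between pairs of them, Pearson's r over the 6 libraries ran from -0.846 (Gsx1 and Sp8) to 0.969 (Gsx2 and Dlx2). After each group's mean was subtracted it ran from -0.969 (Gsx1 and Sp8) to 0.927 (Dlx1 and Dlx5). The mean of their standardised log2 levels took the values -0.76, -0.78 and -0.24 in the WT and 0.63, 1.05 and 0.10 in the KO brains. Over the 6 libraries and 11419 other genes, Braf, R3hdm2, Nudt14, Afdn and Pcmt1 followed this mean most closely (Pearson's r between 0.982 and 0.993). After each group's mean was subtracted, the closest were Cbl, Vps37a, Sos1, Fbxw11 and Exd2 (0.973 to 0.992). With 6 points, that many candidates and shared differences in tissue make-up, these correlations only describe the libraries.

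**Figure D4:**
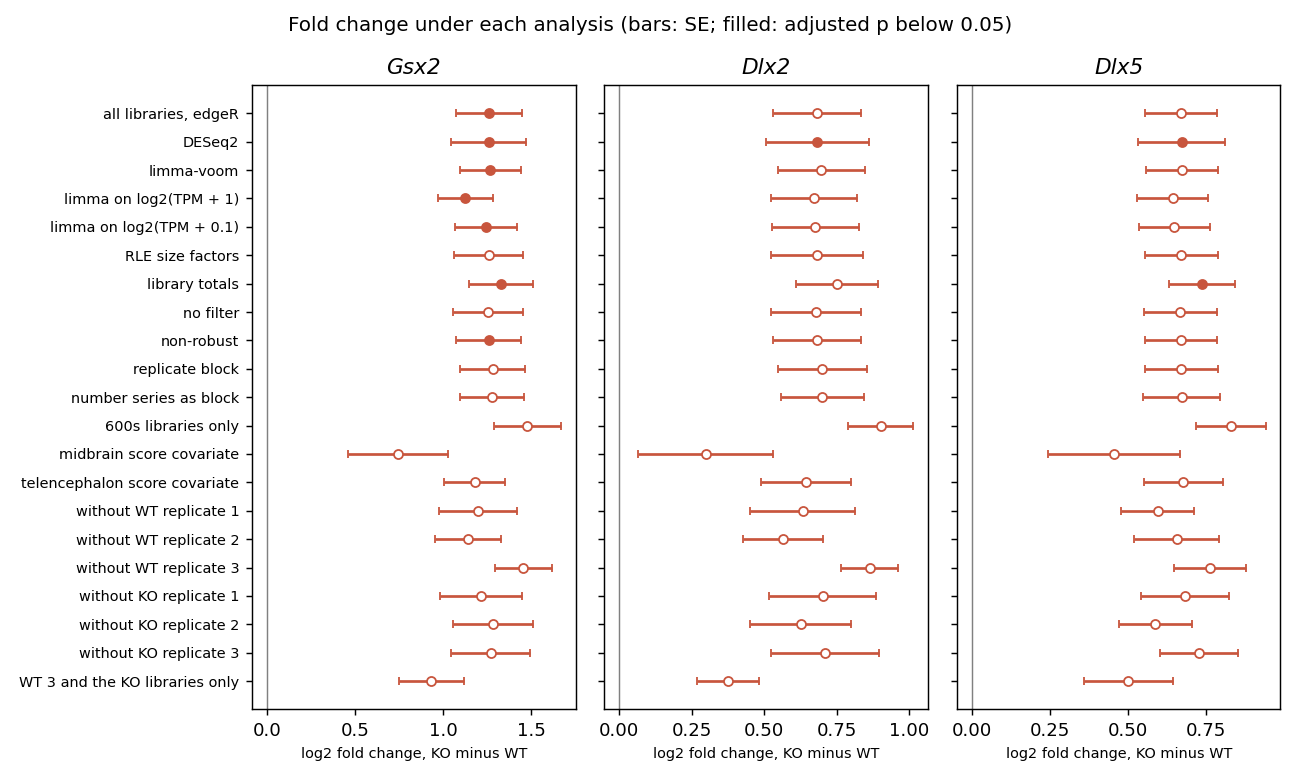
Log2 fold change, KO minus WT (horizontal axes), with SE, of Gsx2, Dlx2 and Dlx5 under each analysis (rows); filled points have an adjusted p below 0.05. The fold changes are positive in all rows, the lowest being 0.74, 0.30 and 0.46 with the midbrain score as covariate, and no point is filled where 1 library is left out.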

How the data were processed

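The authors deposited, per the file headers, an expected count and a TPM for each gene and library, estimated over RefSeq transcripts. STAR 2.5.3a and RSEM 1.2.28, with FastQC and Trimmomatic and the builds mm10 and GRCm38, come from the submitters' processing notes; settings and the strand option are not stated there. Libraries were stranded and read from both ends, per the labels. Rounded to whole numbers, the deposited expected counts were tested across all 15848 genes kept by filterByExpr with edgeR 4.0.16 (TMM scaling, robust quasi-likelihood F test, two-sided, Benjamini-Hochberg adjustment); genes are called at an adjusted p below 0.05. CPM are TMM-scaled, and fold changes are log2, KO minus WT, with the SE implied by the F statistic. Deposited TPM values served for ratios and for order by level. Alternatives used DESeq2 1.42.0, limma 3.58.1 on counts and on log2(TPM + 1) or log2(TPM + 0.1), other scalings, filters, blocks and covariates, and each library left out. The edgeR test was checked on simulated data. Replicate pairs differed by more than sampling noise (chi-square per degree of freedom between 45.2 and 175). The p-values judge the difference between KO and WT against the spread between brains within each group. The labels do not state separate litters, so these p-values speak only for these brains. All 9 genes are named, with the called or, failing those, the 3 most abundant members of other lists; some genes this rule names are not reported here, though counts and sums over lists include them; the genes and lists were chosen with earlier results of these data known. Coordinates and promoters are RefSeq's (GRCm38.p6), exon overlaps GENCODE's.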

Additional observations from a re-analysis of the deposited data

How the results depend on the processing

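Over all genes, edgeR called 159 in the analysis reported. DESeq2 called 1438, limma on log2(TPM + 1) 245 and on log2(TPM + 0.1) 248. The count was 66 with the replicate block, 87 with the number series of the library labels as a block, 87 with the telencephalon score as covariate, and 0 with the midbrain score as covariate (741 at an unadjusted p below 0.05), with the 4 libraries numbered in the 600s in their labels alone (WT 1, WT 2, KO 1 and KO 2; 1546) and with WT 3 and the KO libraries alone (added after seeing the data; 1697). It ranged from 36 to 82 with 1 library left out, lowest without KO 1. Of the 9 factors, 1 was called in the analysis reported. Gsx2 was also the 1 factor called by limma on counts and on both log2 TPM scales (limma adjusted p between 0.0294 and 0.0334). The same held for edgeR without robust fitting (edgeR adjusted p = 0.0437). The count of factors was 3 by DESeq2, 2 with library totals, and 0 with RLE size factors or without a filter on low counts. It was also 0 with either block, either covariate, the 600s libraries, or with any 1 library left out (a range of 0 to 0). Gsx2 stayed close to the threshold with RLE size factors and with no filter (edgeR adjusted p = 0.0502 and 0.0508), and with the replicate block it had 1.28 ± 0.19 (0.0772). Signs turned for Gsx1, to 1.41 with the midbrain score, 0.10 with the telencephalon score and 0.69 with WT 3 and KO alone, its values with 1 library left out running from -0.61 to 0.26, and for Sp8, to -0.27 with the midbrain score; the cause was not tested. The other 7 factors kept positive signs in every analysis run. Same-numbered libraries correlated in their deviations from the group means at r = 0.218, 0.266 and 0.0675. Libraries with unlike numbers gave r between -0.299 and 0.0706, below the values for replicates 1 and 2. With the replicate block 3845 genes were at an unadjusted p below 0.05, against 3106 in the analysis reported. The labels state no pairing and the analysis reported has no block, so whether the numbers pair the libraries is not settled here. Counting depth is lowest for Gsx1 (85 to 374 expected counts a library) and Gsx2 (113 in WT 2, its lowest).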
